A study of Mus musculus with 10 samples.

Results

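Genes of the fetal RNA-binding and LIN28 pathway were followed in whole-brain RNA of 10 Swiss Webster mouse pups that had been through hypoxia-ischemia, a model of birth asphyxia in which oxygen and blood supply are cut for a time. The 10 genes are Igf2bp1, Igf2bp2, Igf2bp3, Lin28b, Trim71, Mex3a, Mex3b, Msi1, Hmga1 and Hmga2, and all 10 were found by symbol among the 55471 gene identifiers measured. They were picked from the fetal and progenitor programme around LIN28 partly because some were seen to be lower in the treated brains, so the difference between the groups is described here for them and not tested. Of these, 5 pups (numbers 6 to 10) received allopregnanolone, a neurosteroid derived from progesterone and a positive modulator of GABA-A receptors, and 5 pups (numbers 1 to 5) had the injury and no treatment. Dose and timing were not given in the sources used here. All pups are given as wild type and as neonatal day 5, and no uninjured brain is among the samples. Each pup gave 1 RNA-seq library of the whole brain, so a value is an average over every cell type and region. Whether pups of a group shared a litter was not given in the sources used here, and the p-values below measure the spread between these pups.

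LIN28 proteins bind the precursors of the let-7 microRNAs and keep them from being matured, and let-7 in turn silences messenger RNAs that carry sites for it, among them those of LIN28 itself. Cells early in development have much LIN28 and little let-7, and the balance turns as they differentiate. The IGF2BP proteins bind fetal messenger RNAs and hold them stable or move them within the cell, HMGA proteins open chromatin in proliferating cells, and TRIM71, MEX3 and Musashi proteins act on messenger RNAs of stem and progenitor cells. In the brain most of these genes are known for high levels in the embryonic neural tube and a decline around birth.

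The let-7 family is shown first because LIN28B acts on it and because several of these genes are known as its targets. In the RefSeq table (GRCm38.p6) 10 mature forms, let-7a, b, c, d, e, f, g, i and k and miR-98, share the seed (bases 2 to 8, in capitals), while let-7j has another. Mature microRNAs were not analysed here.
let-7a: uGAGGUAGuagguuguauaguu
let-7b: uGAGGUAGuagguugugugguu
let-7i: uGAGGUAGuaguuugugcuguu
miR-98: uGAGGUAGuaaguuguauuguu

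The complement of this seed, CTACCTC, was searched on the sense strand of the longest annotated 3′ UTR of each coding gene (GENCODE M21, GRCm38). It was found in 7 of the 10 genes. Igf2bp1, Lin28b, Hmga2 and Trim71 had 4 matches each, Igf2bp2, Igf2bp3 and Hmga1 had 1 each, and Mex3a, Mex3b and Msi1 had none. Among all 21000 genes with an annotated 3′ UTR, 9.02% had at least 1 match and 0.152% had 3 or more. Long 3′ UTRs hold more matches by length alone: these genes had a median of 2566 bases against 961 over all, and among genes with 2000 bases or more 19.97% had a match and 0.576% had 3 or more. The match nearest to the stop codon of each gene is shown with its surroundings, the 7 bases that pair with the seed being in capitals. A match is a description of the sequence and not a shown site of action.
Lin28b, chr10:45381023-45381029, minus strand: acccgggcgggaagtCTACCTCatgc
Trim71, chr9:114512473-114512479, minus strand: aacattgcctaagtcCTACCTCagct
Igf2bp1, chr11:95961779-95961785, minus strand: gctgtgcgaagtaaaCTACCTCaagg
Igf2bp2, chr16:22059474-22059480, minus strand: acacacaaataaaagCTACCTCaggt
Igf2bp3, chr6:49086788-49086794, minus strand: tgcatttttactcaaCTACCTCaggt
Hmga2, chr10:120364225-120364231, minus strand: gccgacattcaatttCTACCTCagca
Hmga1, chr17:27563292-27563298, plus strand: tcctctgttcacaaaCTACCTCtgga

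In 6 of these 7 the match is followed by an A, a base known to strengthen microRNA sites. In Hmga1 it is followed by a T. All 4 matches of Trim71 have that A, 3 of the 4 of Igf2bp1, and 1 of the 4 in each of Lin28b and Hmga2.

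**Figure D1:**
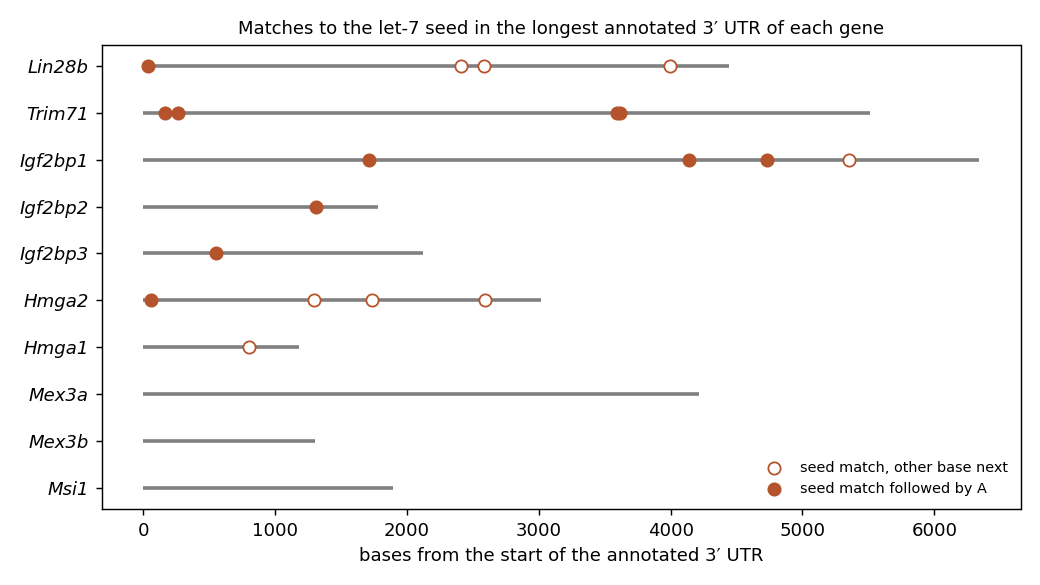
Position of matches to the let-7 seed (points) along the longest annotated 3′ UTR of each gene (grey lines, in bases from its start; filled points are followed by A). Lin28b, Trim71, Igf2bp1 and Hmga2 carry 4 matches each, and Mex3a, Mex3b and Msi1 carry none.

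Libraries held 18656836 to 34270723 estimated counts, treated library 6 being the deepest, and 1 count was worth 0.0298 to 0.0563 CPM, the count scaled to a common library size after TMM correction. All 8 markers of neurons were measured, summing to 6362 to 7400 CPM in treated and 6672 to 7519 CPM in untreated libraries, and of them Map2, Tubb3 and Stmn2 were lower and Gad1 higher with allopregnanolone. Untreated libraries 1, 2 and 3 carry another prefix in their library name than the other 7, so that the prefix holds untreated samples alone. Of 17101 genes tested with edgeR's quasi-likelihood test, 1131 were higher and 795 lower with allopregnanolone at an adjusted p under 0.05, and 783 were higher and 1451 lower when libraries were scaled by their totals alone. Without untreated libraries 1, 2 and 3 the counts were 76 higher and 23 lower. Without 1 library at a time, 1122 genes passed without untreated library 3, 1086 without untreated library 4 and 1225 without untreated library 1.

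The IGF2BP genes stood at very different levels, and both that were measurable had lower fitted levels in the treated brains. Igf2bp2 (ENSMUSG00000033581, chromosome 16, 22059009 to 22163299) encodes the family member known also from adult tissues. It was at 3.22, 4.00, 3.03, 3.28 and 2.54 CPM in treated libraries 6 to 10 and at 5.90, 3.62, 4.396, 4.85 and 3.92 CPM in untreated libraries 1 to 5. Treated library 7 lay above untreated libraries 2 and 5, so the groups overlapped, while untreated library 1 was the highest of all. The means were 3.21 ± 0.526 CPM in treated and 4.54 ± 0.894 CPM in untreated libraries (SD, n = 5 each), with a log2 fold change (treated minus untreated) of -0.50 (SE 0.16).

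Igf2bp3 (ENSMUSG00000029814, chromosome 6, 49085223 to 49214957) encodes the member known mainly from embryos and tumours, and it had a large fitted difference at a low level. It was at 0.597, 0.225, 0.894, 0.554 and 0.336 CPM in treated libraries 6 to 10 and at 3.12, 1.42, 0.911, 1.16 and 1.42 CPM in untreated libraries 1 to 5. Every treated library lay below every untreated one, but treated library 8 and untreated library 3 were almost level. The log2 fold change was -1.60 (SE 0.40), 3.03-fold lower in treated brains, and it was -1.21 without untreated library 1. These levels rest on few reads, 61 estimated counts in all treated and 193 in all untreated libraries, and the gene reached 10 counts in 3 treated and 5 untreated libraries. Of its exons 18.7% lie opposite those of Malsu1, a mitochondrial ribosome assembly factor, whose log2 fold change was -0.28 (SE 0.11), and the strand setting of the counting is not given in the sources used here.

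Igf2bp1 (ENSMUSG00000013415, chromosome 11, 95957163 to 96005940), the member known to carry beta-actin messenger RNA in growing axons, was close to the limit of detection. It had 10, 1, 2, 0 and 6 counts in treated libraries 6 to 10 and 1, 2, 6, 1 and 3 counts in untreated libraries 1 to 5. These are 0 to 0.298 CPM treated and 0.0391 to 0.238 CPM untreated, and the 0 of treated library 9 allows up to 0.138 CPM, the value of 3 counts. The gene did not pass the filter of 10 counts in at least 5 libraries, so no difference was fitted, and none was detectable at this depth.

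**Figure D2:**
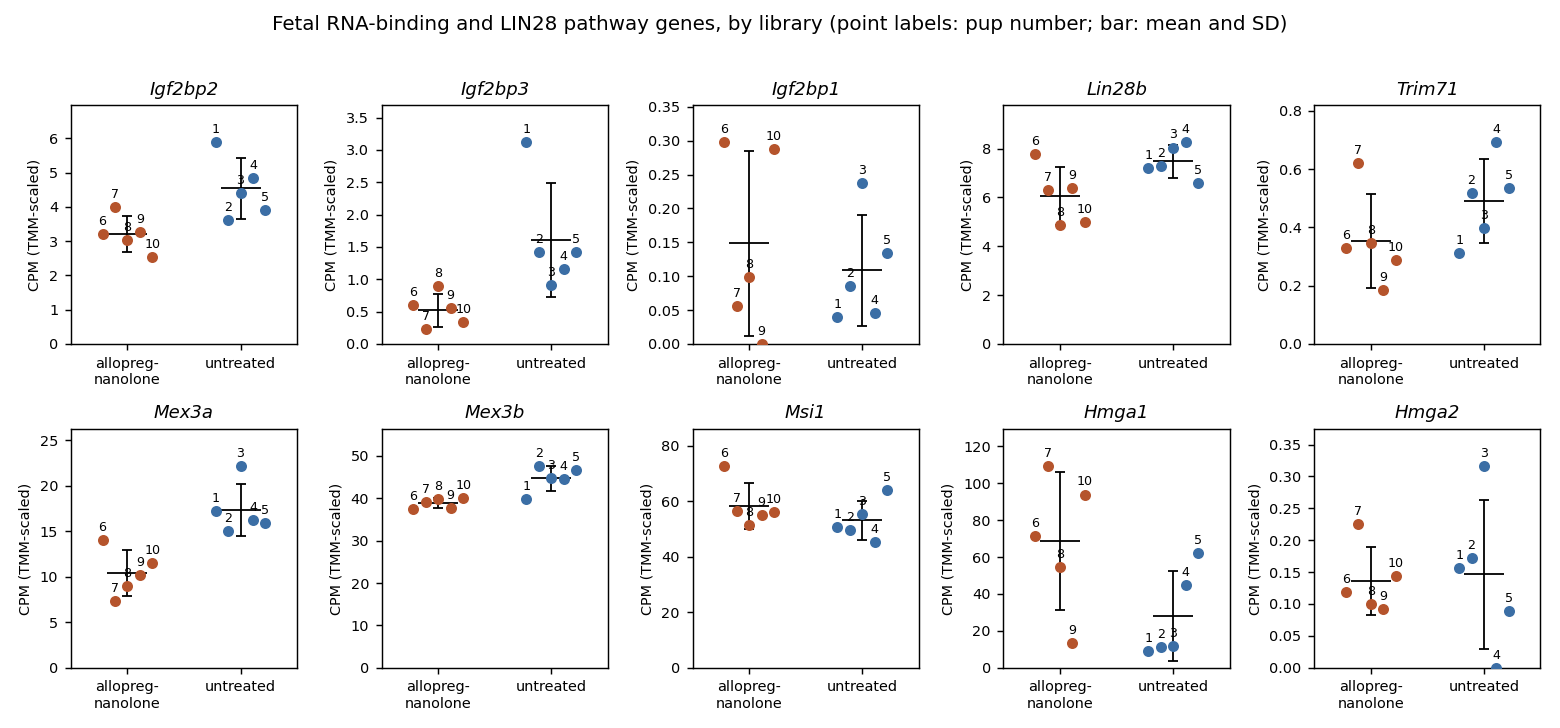
CPM (TMM-scaled) of the 10 genes in each library, treated left of untreated, with the pup number at each point and the mean and SD as a bar. Treated and untreated points are apart for Igf2bp3 and Mex3a, and Igf2bp1 and Hmga2 stay under 0.4 CPM in every library.

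Lin28b (ENSMUSG00000063804, chromosome 10, 45376620 to 45486395) encodes the LIN28 protein that persists longest in mammalian tissues. It was at 7.78, 6.31, 4.87, 6.37 and 4.98 CPM in treated libraries 6 to 10 and at 7.19, 7.28, 8.04, 8.27 and 6.59 CPM in untreated libraries 1 to 5. Treated libraries 7 to 10 lay below all untreated ones, and treated library 6 lay above untreated libraries 1, 2 and 5. The means were 6.06 ± 1.19 CPM in treated and 7.47 ± 0.683 CPM in untreated libraries (SD, n = 5 each), with a log2 fold change of -0.29 (SE 0.14), and of -0.41 without treated library 6.

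Its paralogue Lin28a was at background, with means of 0.132 ± 0.123 CPM in treated and 0.123 ± 0.0833 CPM in untreated libraries (SD, n = 5 each), and was not fitted. Lin28b itself had 713 counts over the treated and 883 over the untreated libraries.

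Trim71 (ENSMUSG00000079259, chromosome 9, 114507133 to 114564369), an RNA-binding ubiquitin ligase of early embryos and a classical let-7 target, was just above the filter. It had 11, 11, 7, 4 and 6 counts in treated libraries 6 to 10 and 8, 12, 10, 15 and 12 counts in untreated libraries 1 to 5. The levels, 0.185 to 0.619 CPM treated and 0.312 to 0.693 CPM untreated, overlapped widely, and the log2 fold change of -0.48 had an SE of 0.36.

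The MEX3 genes, which encode KH-domain RNA-binding proteins that also attach ubiquitin, had 10 or more counts in every library. Mex3a (ENSMUSG00000074480, chromosome 3, 88532395 to 88541396), known from stem and progenitor cells of gut and brain, was at 14.0, 7.32, 9.04, 10.2 and 11.6 CPM in treated libraries 6 to 10. In untreated libraries 1 to 5 it was at 17.3, 15.1, 22.2, 16.2 and 15.9 CPM, so that every treated library lay below every untreated one. Treated libraries averaged 10.4 ± 2.54 CPM and untreated libraries 17.3 ± 2.84 CPM (SD, n = 5 each), with a log2 fold change of -0.72 (SE 0.16). Leaving out 1 library at a time kept it between -0.86 and -0.62, and without untreated libraries 1, 2 and 3 it was -0.61.

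Mex3b (ENSMUSG00000057706, chromosome 7, 82867333 to 82871515) stood higher and differed less. It was at 37.5, 39.0, 39.9, 37.8 and 40.2 CPM in treated libraries 6 to 10 and at 39.8, 47.6, 44.9, 44.5 and 46.6 CPM in untreated libraries 1 to 5. Untreated library 1 lay within the treated range and the other 4 untreated libraries above it. Treated libraries varied little for this gene, with a coefficient of variation of 3.12%, and the log2 fold change was -0.20 (SE 0.05).

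Msi1 (ENSMUSG00000054256, chromosome 5, 115429599 to 115455698) encodes Musashi-1, an RNA-binding protein of neural stem cells that astrocytes and their precursors also keep. It was at 72.8, 56.4, 51.5, 55.0 and 56.0 CPM in treated libraries 6 to 10 and at 50.8, 49.7, 55.4, 45.3 and 64.1 CPM in untreated libraries 1 to 5. The groups overlapped, the log2 fold change was 0.14 (SE 0.10), and treated library 6 was the highest. Without that library the log2 fold change was 0.04.

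Hmga1 and Hmga2 encode small chromatin proteins with AT-hooks, which bind the minor groove of AT-rich DNA. Hmga2 (ENSMUSG00000056758, chromosome 10, 120361275 to 120476469), the best-known let-7 target, had 2 to 4 counts in every treated library and 0 to 8 counts in untreated libraries. Its levels were 0.0923 to 0.225 CPM treated and 0 to 0.317 CPM untreated, the 0 of untreated library 4 allowing up to 0.139 CPM. It did not pass the filter, and a difference was not detectable at this depth.

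Hmga1 (ENSMUSG00000046711, chromosome 17, 27556497 to 27563674) cannot be read on its own. It was at 71.4, 109, 54.5, 13.3 and 93.8 CPM in treated libraries 6 to 10 and at 9.29, 11.2, 11.9, 45.1 and 62.3 CPM in untreated libraries 1 to 5. A second gene, Hmga1b (ENSMUSG00000078249, chromosome 11, 120762794 to 120764419), ran the opposite way in the same pups. It was at 71.0, 7.55, 50.1, 99.998 and 9.63 CPM in treated libraries 6 to 10 and at 95.9, 95.9, 87.8, 48.2 and 60.5 CPM in untreated libraries 1 to 5.

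Their sum was steadier, at 103 to 142 CPM in treated and 93.2 to 123 CPM in untreated libraries. The share of Hmga1 in the sum lay in 3 separate ranges. It was 8.84%, 10.5% and 11.95% in untreated libraries 1, 2 and 3 and 11.7% in treated library 9. It was 48.3% and 50.7% in untreated libraries 4 and 5 and 50.1% and 52.1% in treated libraries 6 and 8. Treated libraries 7 and 10 were at 93.6% and 90.7%.

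The annotated transcripts leave little to tell the genes apart. The coding sequences are identical over all 324 bases. The best-scoring alignment of a pair of transcripts spans 1602 columns with 3 mismatches and no gap. Hmga1 alone had a log2 fold change of 1.30 (SE 0.56), which was 0.35 without untreated libraries 1, 2 and 3. The sum of both genes averaged 116 ± 15.7 CPM in treated and 106 ± 11.1 CPM in untreated libraries (SD, n = 5 each), and its log2 fold change was 0.14 when both were counted as 1 gene, a step added after the values were seen.

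**Figure D3:**
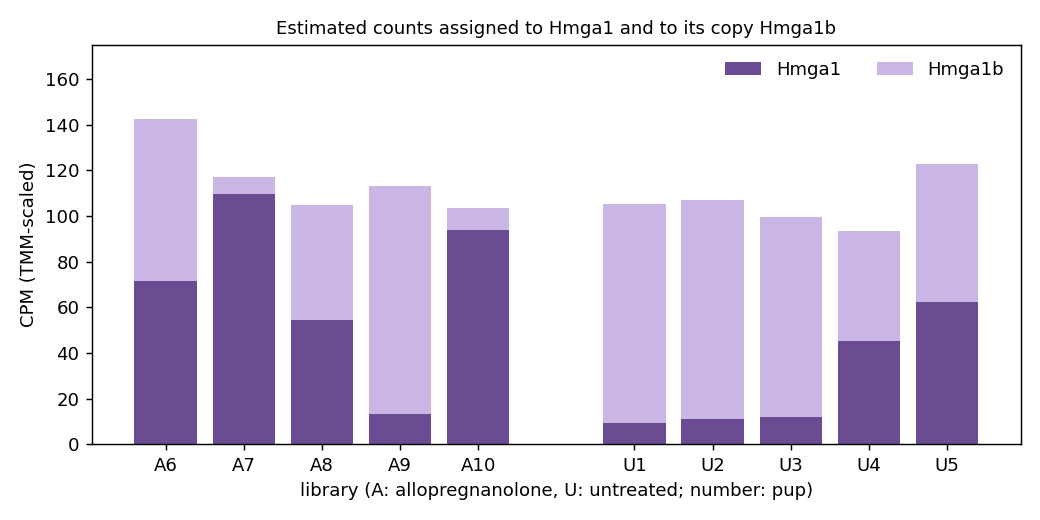
CPM of Hmga1 (dark) and Hmga1b (light), stacked, in each treated (A) and untreated (U) library. The sum stays between 93.2 and 142 CPM while the share of Hmga1 lies at 8.84% to 11.95%, at 48.3% to 52.1% or at 90.7% to 93.6%.

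Levels are compared between genes as CPM per kilobase of exon, since longer genes collect more reads. In group means, Hmga1 was at 32.2 ± 17.6 CPM per kilobase in treated and 13.2 ± 11.4 CPM per kilobase in untreated libraries (SD, n = 5 each), the split with Hmga1b included. Mex3b was at 11.6 ± 0.361 in treated, below Hmga1, and 13.3 ± 0.893 in untreated libraries, level with it, and Msi1 at 10.1 ± 1.43 in treated and 9.15 ± 1.23 in untreated libraries. Mex3a was at 1.81 ± 0.439 and 3.00 ± 0.491, Lin28b at 0.669 ± 0.132 and 0.824 ± 0.0753, and Igf2bp2 at 0.434 ± 0.0710 and 0.613 ± 0.121 CPM per kilobase, treated and untreated. Igf2bp3 was at 0.0639 ± 0.0317 in treated and 0.197 ± 0.107 CPM per kilobase in untreated libraries. Trim71, Hmga2 and Igf2bp1 stayed at or under 0.0526 CPM per kilobase in both group means. Within a group, the libraries of Hmga1 overlapped those of its neighbours in this order. By mean and SD, Hmga2 and Igf2bp1 overlapped in both groups, and Mex3b and Msi1 among the treated libraries. By the same measure Igf2bp3 overlapped Trim71 among the treated libraries. Trim71 overlapped Hmga2 in both groups and Igf2bp1 among the treated libraries.

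Among the 8 genes kept by the filter, 6 had a log2 fold change below 0 and the median was -0.39, against a median of -0.00 over all genes tested. In the fit over all genes Igf2bp3, Mex3a and Mex3b passed an adjusted p of 0.05, all lower, beside 4.65% of all genes tested that passed lower, and 0 passed higher, beside 6.61%. Groups did not overlap for 2 of the 8, both lower, beside 4.20% of all genes, and for 0 that were higher, beside 5.44%. These counts describe the choice of the genes, which was made partly for such differences, and nothing is read from them. Igf2bp3 could pass the filter through the untreated libraries alone. Around the threshold, Mex3b was the last of the genes to pass, with a log2 fold change of -0.20, and Igf2bp2 the first not to, with -0.50. Igf2bp2 passed as well, lower, in 4 of the 20 alternatives that tested it. These were library totals alone, DESeq2, the mean of Y-linked genes as a covariate, and the fit without untreated library 2. Hmga1 passed, higher, without untreated library 5, with a log2 fold change of 1.83. Mex3b did not pass without untreated library 2, 3, 4 or 5 or without treated library 6, 7 or 9, and Igf2bp3 not without untreated library 1. Without untreated libraries 1, 2 and 3, none passed. Since these are whole brains, fewer cells that express a gene and less of its RNA per cell cannot be told apart.

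**Figure D4:**
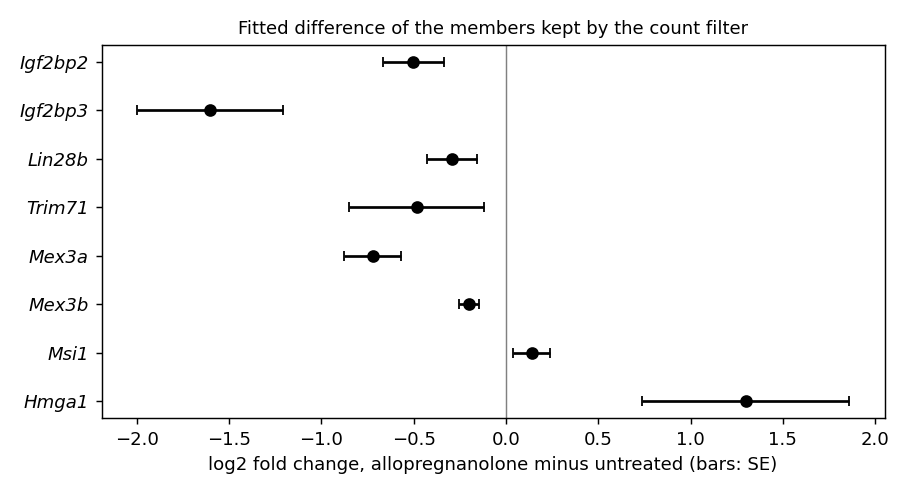
Log2 fold change (treated minus untreated, edgeR, with SE as bars) of the 8 genes that passed the count filter. Igf2bp3 lies lowest at -1.60, and Hmga1, whose reads are shared with Hmga1b, highest at 1.30.

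Calls among genes of let-7 processing and silencing depended on the fit. Of 20 such genes, 19 were kept. In edgeR's test 0 reached an adjusted p under 0.05, with 5 at an unadjusted p under 0.05 (4 lower and 1 higher) and a median log2 fold change of -0.06. DESeq2 called 3 of them lower, the Argonaute gene Ago1 and the helicases Ddx5 and Ddx17, and limma-trend called 0. Library totals alone called the same 3, and without untreated library 5 Ago1, Ago4 and Ddx17 passed, lower; without untreated library 2 Ddx17 passed, and without treated library 9 Ago3, which was higher. Tut4 and Tut7, enzymes known to tag let-7 precursors, had log2 fold changes of -0.09 (SE 0.09) and -0.02 (SE 0.06). Dis3l2, the nuclease that degrades tagged precursors, was at 24.8 ± 0.834 CPM in treated and 26.9 ± 2.16 CPM in untreated libraries (SD, n = 5 each, log2 fold change -0.12, SE 0.06, adjusted p = 0.260, edgeR). Summed, the 20 genes gave 1880 to 1904 CPM in treated and 1941 to 2056 CPM in untreated libraries, which did not overlap. Ddx5 and Ddx17 had the highest means of the list and weigh most in this sum. Ddx5 averaged 365.8 CPM in treated and 409.8 CPM in untreated libraries, and Ddx17 309.6 and 344.5 CPM. Of the 19 genes kept, 14 had a log2 fold change below 0, beside 8692 of all 17101 genes tested. Whether the list as a whole shifted was not tested, and the separation of the sums is not read as such a shift.

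Of 25 genes known as let-7 targets in other cells, all were kept, 6 fell and 1 rose, with a median log2 fold change of -0.13. Of these 25, 16 had a match to the let-7 seed in the 3′ UTR searched. Over all genes 4.65% were lower and 6.61% higher. The list is from the literature and was written with other results of these data known. Myc, the growth-driving transcription factor, was at 20.6, 20.3, 20.7, 17.2 and 19.2 CPM in treated libraries 6 to 10 and at 28.0, 25.3, 28.8, 25.4 and 29.4 CPM in untreated libraries 1 to 5. The groups did not overlap, and Myc fell by 0.48 on the log2 scale (SE 0.07, adjusted p = 0.00164, edgeR, lower in 5 of 5 treated libraries). Its neural relative Mycn averaged 23.0 ± 2.01 CPM in treated and 29.8 ± 2.32 CPM in untreated libraries (SD, n = 5 each) and fell as well (log2 fold change -0.37, SE 0.07, adjusted p = 0.00777, edgeR). Ccnd2, the D cyclin of cortical progenitors, averaged 75.8 ± 9.64 CPM in treated and 100.2 ± 5.30 CPM in untreated libraries (SD, n = 5 each, log2 fold change -0.40, SE 0.08, adjusted p = 0.00716, edgeR). Tgfbr1, a TGF-beta receptor, and the zinc-finger gene Plagl2 also fell. Irs2, an adaptor of insulin and IGF receptors, was the 1 that rose, by a log2 fold change of 0.33 (SE 0.06, adjusted p = 0.00336, edgeR). Hras and Nras had log2 fold changes of 0.02 and -0.18 and did not pass. Myc, Mycn, Ccnd2 and Irs2 kept their call in each fit that left out 1 library, and none of the 4 passed without untreated libraries 1, 2 and 3, where the log2 fold changes were -0.49, -0.33, -0.37 and 0.37.

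Genes with and without a seed match had similar shares of calls over the whole transcriptome, a comparison given with no test. Of 1546 tested genes with at least 1 match 5.43% were lower and 7.96% higher, with a median log2 fold change of -0.01, and of 13105 without one 5.01% were lower and 7.27% higher, with a median of -0.00. Of 25 genes with 3 or more matches, Lin28b and Trim71 included, 4 were lower and 1 higher, or 16% and 4%. Over all tested genes with a 3′ UTR 5.06% were lower and 7.34% higher. The 25 genes are few and had a median 3′ UTR of 4466 bases, against 1214 over all. Of the 3 genes called lower above, Igf2bp3 has 1 match and Mex3a and Mex3b have 0 in the 3′ UTRs searched. The genes followed were picked partly because some were lower in treated brains, so nothing is read from these matches.

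Of the close relatives of the 10 genes, Mex3d passed lower and Msi2 higher. Mex3d was at 31.7, 30.3, 29.5, 27.6 and 29.1 CPM in treated libraries 6 to 10 and at 33.9, 37.8, 43.5, 35.9 and 42.1 CPM in untreated libraries 1 to 5, with no overlap, and fell by 0.38 on the log2 scale (SE 0.07, adjusted p = 0.00618, edgeR). Mex3c did not pass, at 34.01 ± 3.22 CPM in treated and 33.1 ± 1.32 CPM in untreated libraries (SD, n = 5 each, log2 fold change 0.04, SE 0.07). Msi2, the Musashi paralogue, rose to 87.4 ± 5.84 CPM in treated libraries, against 73.2 ± 5.30 CPM in untreated libraries (SD, n = 5 each, log2 fold change 0.26, SE 0.06, adjusted p = 0.0182, edgeR), and did not pass without untreated library 1. Of 8 relatives 7 were kept, 1 rose and 1 fell, beside 6.61% of all genes higher and 4.65% lower. Without untreated library 1, 1 passed, lower, and without untreated libraries 1, 2 and 3, 0 passed.

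Among 39 other RNA-binding proteins of neurons and progenitors, all kept, 5 rose and 5 fell, with a median log2 fold change of -0.03, beside 6.61% of all genes higher and 4.65% lower. Without untreated libraries 1, 2 and 3, 1 was higher and 1 lower. With library totals alone, 4 were higher and 11 lower. Ybx1, a cold-shock protein abundant in fetal tissue, was the largest of the falls, to 400 ± 31.1 CPM in treated against 559 ± 18.6 CPM in untreated libraries (SD, n = 5 each, log2 fold change -0.48, SE 0.06, adjusted p = 0.000434, edgeR). Elavl2, of the Hu family of young neurons, and Syncrip, a partner in RNA transport granules, fell by 0.28 and 0.25 on the log2 scale (adjusted p = 0.00831 and 0.00626, edgeR). Cpeb1, which controls polyadenylation and translation at synapses, rose by a log2 fold change of 0.45 (SE 0.06, adjusted p = 0.00142, edgeR). Ybx1 and Cpeb1 kept their call in all 21 alternatives.

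Of 15 genes of the IGF axis and of known IGF2BP cargo, 2 rose, namely Irs2 and the IGF carrier Igfbp3 (log2 fold change 0.50, SE 0.12, adjusted p = 0.0202, edgeR), and the median log2 fold change was -0.01, beside 6.61% of all genes higher. Without untreated libraries 1, 2 and 3, 0 passed. Igfbp3 did not pass without untreated library 1 or 3 or treated library 9, which left 1 gene called in each case, and without untreated library 5 the list had 2 higher and 2 lower. Igf2, the growth factor whose messenger RNA named the IGF2BP family, was at 420, 224, 261, 223 and 224 CPM in treated libraries 6 to 10 and at 199.7, 209, 284, 236 and 272 CPM in untreated libraries 1 to 5. H19, the noncoding RNA from the same imprinted locus, was at 13.8, 3.72, 5.07, 4.25 and 3.02 CPM in treated libraries 6 to 10 and at 5.51, 4.74, 6.22, 8.23 and 6.14 CPM in untreated libraries 1 to 5. Treated library 6 stood far above the rest for both genes, and without it H19 passed, lower, with a log2 fold change of -0.62, against -0.01 with all libraries. None of 7 mesenchymal markers such as Col1a1 passed, and they summed to 518 CPM in treated library 6, to 147 to 176 CPM in the other treated and to 142 to 181 CPM in untreated libraries, and their part in these values was not tested.

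Genes of progenitors and of cell division, the cells in which the LIN28 programme is best known, moved in the same samples. Of 24 proliferation genes 11 fell and 0 rose, with a median log2 fold change of -0.56, beside 4.65% of all genes lower. Their sum was 104 to 119 CPM in treated libraries. It was 222 CPM in untreated library 1 and 138 to 164 CPM in untreated libraries 2 to 5. The DNA clamp Pcna fell to 26.8 ± 1.65 CPM in treated against 33.6 ± 1.74 CPM in untreated libraries (SD, n = 5 each, adjusted p = 0.00499, edgeR). Mki67, Top2a and Bub1b fell by 0.84, 0.75 and 1.07 on the log2 scale (adjusted p = 0.0216, 0.0218 and 0.0193, edgeR). The number that passed was 0 without untreated libraries 1, 2 and 3, 4 without untreated library 1 or 4, and 7 without treated library 7.

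Of 19 neural progenitor genes 4 fell and 0 rose, beside 4.65% of all genes lower and 6.61% higher, and 1 passed without untreated libraries 1, 2 and 3. Their median log2 fold change was -0.23, with sums of 347 to 422 CPM in treated and 401 to 499 CPM in untreated libraries. Fabp7, the lipid-binding protein of radial glia, fell to 27.5 ± 2.64 CPM in treated against 48.4 ± 8.90 CPM in untreated libraries (SD, n = 5 each, log2 fold change -0.81, SE 0.11, adjusted p = 0.00105, edgeR). Tnc, a matrix glycoprotein of the germinal zone that reactive astrocytes also make, fell by 0.77 on the log2 scale (adjusted p = 0.00146, edgeR). Sox11 and Nes fell by 0.36 and 0.26, and each missed the threshold without several single libraries, so that 2 genes passed without untreated library 1, 3 or 4 or treated library 8, 9 or 10. Of 9 markers of young neurons 5 were lower and 0 higher, beside 4.65% of all genes lower. They summed to 547 to 670 CPM in treated and 759 to 852 CPM in untreated libraries. Of 9 oligodendrocyte markers all 9 were higher, beside 6.61% of all genes. They summed to 5792 to 7811 CPM in treated and 1956 to 3764 CPM in untreated libraries. Of 7 midbrain markers 6 were kept and all 6 were called higher, beside 6.61% of all genes, with sums of 6.68 to 18.6 CPM in untreated libraries. Treated libraries 6, 7 and 9 were at 102, 77.1 and 55.1 CPM. Treated libraries 8 and 10, at 13.5 and 12.2 CPM, lay within the untreated range. Calls among the young neuron, oligodendrocyte and midbrain markers were not counted without untreated libraries 1, 2 and 3. The part of these cell types and regions in the levels of the 10 genes was not tested.

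Over the 10 libraries, the genes whose log2 CPM most resembled the mean standardised level of the 8 measurable genes were Marcks, Trim24, Rfc2, Zfp804a, Wnt7a and Col4a4, out of 13472 coding genes at 1 CPM or more. Their Pearson r was 0.94 to 0.96, given as a description over 10 libraries that share the group difference, and 0.84 to 0.93 after the group means were taken out. Marcks, a membrane-bound substrate of protein kinase C in growing neurites, came first, at 403 ± 24.2 CPM in treated and 446 ± 15.4 CPM in untreated libraries (SD, n = 5 each, log2 fold change -0.15, SE 0.05). The mean standardised level itself was 0.14, -0.21, -0.56, -0.75 and -0.60 in treated libraries 6 to 10 and 0.22, 0.21, 0.39, 0.53 and 0.64 in untreated libraries 1 to 5. Treated library 6 came closest to the untreated group. The Hmga1 split enters this mean.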

How the data were processed

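RNA of 10 whole brains was sequenced, 5 with allopregnanolone and 5 untreated. Per the labels' protocols, the library kit keeps strand (NEBNext Ultra II Directional). Partek and the mouse build mm10 appear in the submitters' processing notes. Aligner, counter, annotation and strand setting: not given in the sources used here.

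The authors deposited 1 table of estimated counts (expected counts) for 55471 Ensembl identifiers. Its name calls them normalized, but totals differ between libraries and most values are whole, so they were rounded and analysed as counts. GENCODE M21 (GRCm38) matched 55230 identifiers. Genes with 10 or more counts in at least 5 libraries were kept (17101), scaled by TMM and fitted with edgeR 4.0.16 in R 4.3.3 (quasi-likelihood, no covariate, two-sided, Benjamini-Hochberg over all genes kept). Fold changes are treated minus untreated, and an SE is the log2 fold change over the square root of F. Alternatives numbered 21, with limma 3.58.1 and DESeq2 1.42.0 among them. Sex was not among the labels used here. The Y-linked genes of the covariate summed to 0.0862 CPM in untreated library 2 and 0.863 CPM in treated library 10. All other libraries were at 80.3 to 104.7 CPM. Depth limits the precision of low genes, and limits given for 0 counts (3 counts) cover counting error only.

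The genes and lists were chosen with earlier results of these data known. Named are all 10 genes, up to 4 genes of each list with the smallest p past the threshold, direct partners of the 10 genes, and the 6 coding genes with the most similar pattern. Hras, Nras, Ago1, Ago3, Ago4, Ddx5, Ddx17, Tgfbr1 and Plagl2 were named after their values were seen. Some list genes enter the counts and are not reported here by name. Let-7 sequences are RefSeq's (GRCm38.p6), and transcripts were aligned with a local aligner. Figures were drawn with matplotlib 3.10.9.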

Additional observations from a re-analysis of the deposited data

Results flagged for a closer look

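In 2 of the 24 sets of 5 libraries examined (10 genes, Hmga1b and the sum of Hmga1 and Hmga1b, in each group) 1 library lay far from the other 4 by the size of the gap relative to the range. About 1 in 20 sets would be so marked by chance. Msi1 was at 72.8 CPM in treated library 6, with the other treated libraries at 51.5 to 56.4 CPM. Igf2bp3 was at 3.12 CPM in untreated library 1, while untreated libraries 2 to 5 ranged over 0.911 to 1.42 CPM.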

How the results depend on the processing

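No paired analysis was possible because the pups carry numbers 1 to 5 and 6 to 10 and the groups share none. Of the genes refitted under the 21 alternatives, 4 changed sign, none of them called where it did. Without 1 library at a time, log2 fold changes ran from -0.0598 to 0.0155 for Tut7, from -0.0092 to 0.0731 for Mex3c, from -0.0497 to 0.235 for Igf2 and from -0.623 to 0.158 for H19, and Mex3c was at -0.0227 with library totals alone. Tgfbr1, Plagl2, Hras, Nras, Malsu1 and Hmga1b were not followed one by one. Calls among cell type and region markers outside the progenitor and proliferation lists were not counted under the alternatives. Without untreated libraries 1, 2 and 3 the calls numbered 99 for all genes, 0 for the 10 genes, 0 for let-7 targets, 0 for relatives, 0 for the IGF axis, 0 for proliferation, 1 for progenitors and 2 for RNA-binding proteins; that fit had 2 untreated libraries left. The let-7 processing list, with 0 calls, had 3 with library totals alone, 2 with upper-quartile scaling, 2 with the filter of 100 counts and 3 with DESeq2. With that filter, which tests fewer genes, 7 proliferation genes passed and 3 of the 10 genes had a negative log2 fold change, in place of 6. Leaving out 1 library at a time gave 1086 to 2341 genes called in all, 2 to 3 of the 10 genes called lower, 6 to 6 with a negative log2 fold change, 0 to 3 in let-7 processing, 5 to 8 let-7 targets, 1 to 2 relatives, 7 to 11 RNA-binding proteins, 1 to 4 of the IGF axis, 2 to 6 progenitor and 4 to 12 proliferation genes. The cause of these shifts was not tested. Depth limits Igf2bp1, Hmga2 and Trim71.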
